A study of Mus musculus with 24 samples.

Results

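The genes described here are 10 markers of astrocytes and Bergmann glia, the radial astrocytes of the cerebellar cortex whose processes guide migrating granule neurons. They are Aqp4, Aldh1l1, Gja1, Gjb6, Slc1a3, Gfap, Aldoc, Sparcl1, Mlc1 and Apoe. All were found by exact symbol among 12393 genes measured on 24 mouse Affymetrix arrays, each through the probe set with the highest mean. The arrays asked how SMB medulloblastoma lines compare with tumors and normal cerebellum, and how the lines differ after growth factors or RAS transformation. The RAS group held 7 arrays of RAS transformed cells, 3 of SMB21, 2 of SMB55 and 2 of SMB56, and the RAS gene used is not given in the labels. The GF group held 1 array per line, from cells kept for more than 3 weeks with 0.2% heparin, EGF (20 ng/mL) and basic FGF, bFGF, also at 20 ng/mL. The parental group held 8 arrays, 4 of SMB21, 2 of SMB55 and 2 of SMB56. All 3 lines came from spontaneous medulloblastomas of Ptch+/- mice and grew as neurospheres in DMEM/F12 with B27, so every culture, RAS and GF included, derives from tumor cells of Ptch+/- mice. Primary medulloblastoma (MB) was represented by 3 tumors of adult Ptch1 mutant mice, and wild-type cerebellum by 1 adult array and 2 arrays at postnatal day 6 (P6). The age label of P6 replicate 2 disagrees with its title, which was followed. Titles call the replicates biological but name no animal or culture, so p-values measure the spread between these arrays.

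Astrocytes clear glutamate, buffer water and potassium, and couple to each other through gap junctions. Slc1a3 encodes the glutamate transporter GLAST, which Bergmann glia carry at high density. Medulloblastomas driven by Hedgehog signalling arise from granule neuron precursors, and such a tumor also holds host astrocytes, microglia and vessels. In bulk RNA, fewer cells of a type and less RNA per cell cannot be told apart.

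Levels below are log2 of the deposited intensity plus 16, and differences are differences of these values with their standard error (SE). A gene was called when limma's p-value, adjusted over all 12393 genes, was under 0.05. A level was termed low when it lay in the lowest 25% of the probe sets of its array. Array medians ran from 188.8 to 245.1 intensity units. Summed intensity of 7 granule precursor markers was 2618 to 12382 in RAS cells, 4414 to 15642 in GF cells, 20713 to 30443 in parental cells and 44865 to 51245 in tumors, with 24304 in adult and 35293 to 38502 in P6 cerebellum. The adult sum lay within the parental range, so this sum is not a measure of precursors alone. The parental arrays SMB56 replicates 1 and 2 correlated at 0.944 across genes, the least alike of the replicate pairs. Results that rest on them are given with that in view.

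**Figure D1:**
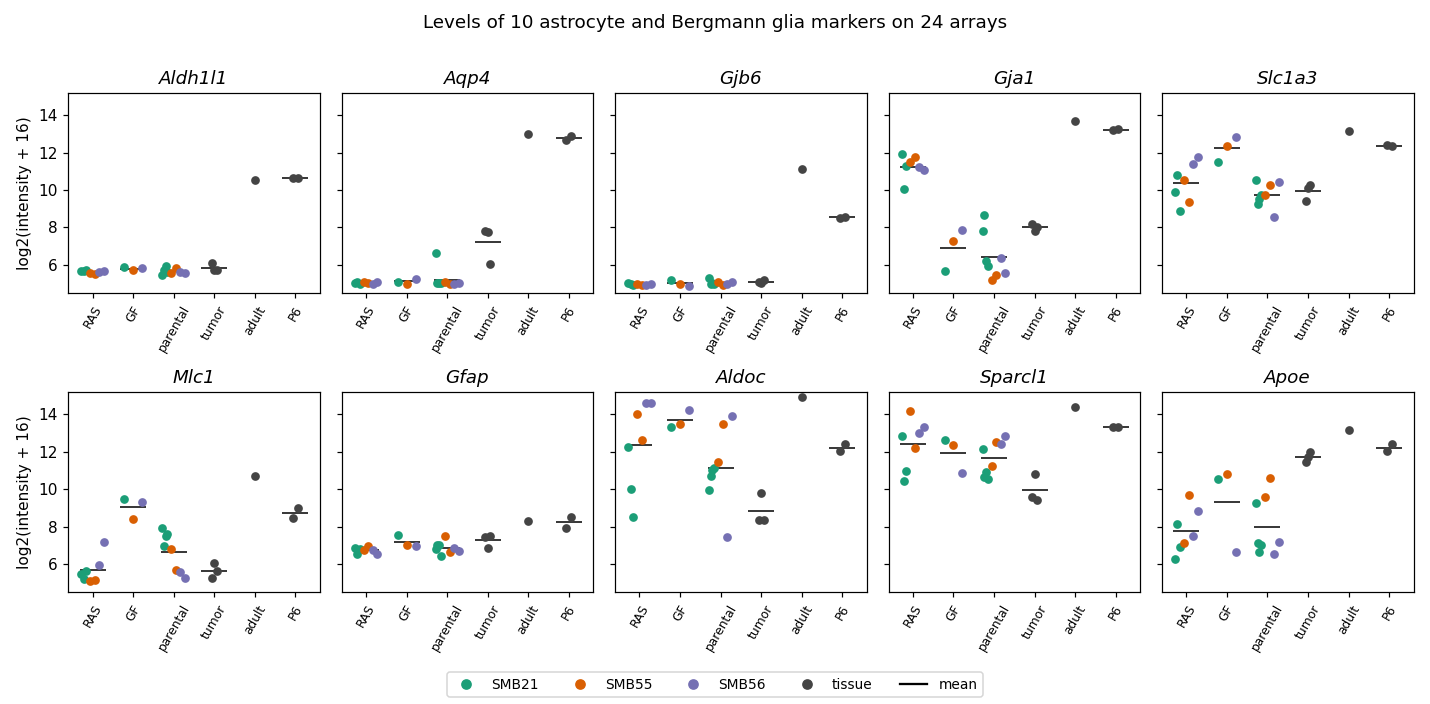
Level of each marker, as log2 of intensity plus 16, on each of 24 arrays. Each point is 1 array, coloured by line or as tissue, and bars are means of all arrays of a column. Aldh1l1, Aqp4 and Gjb6 lie between 4.88 and 6.63 in all 18 cultures, whereas Gja1 is high in RAS cells and Mlc1 and Slc1a3 in GF cells.

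In normal cerebellum, 1 of the 10 markers was called between the adult and P6 arrays, against 8.85% of all genes called higher and 10.3% lower. Gjb6, which encodes the gap junction protein connexin 30, stood at 11.13 in adult cerebellum and at 8.52 and 8.58 in P6 cerebellum. It was higher in the adult by 2.58 (SE 0.12, 5.97-fold, adjusted p = 3.13e-05). Aldoc, the brain aldolase of astrocytes and of a subset of Purkinje cells, was 14.93 in the adult and 12.05 and 12.39 at P6, a difference of 2.71 (SE 0.88, adjusted p = 0.0774). Aldh1l1, a folate enzyme widely used to mark astrocytes, was 10.56 in the adult and 10.67 on both P6 arrays. Among 29 other astrocyte genes, 17 were higher in the adult and 0 lower, including the glutamate transporter Slc1a2 by 2.58 (SE 0.19, adjusted p = 0.00021) and Acsbg1, a lipid-activating enzyme, by 3.28 (SE 0.28, adjusted p = 0.000423). The adult group was a single array, so its spread was assumed to be that of the other groups. When P6 and adult arrays were fitted alone, 7 of 10 markers were called, beside 50.8% of all genes in that fit. Markers of other cells were also higher in the adult. All 3 choroid plexus genes were called higher, with a summed intensity of 26549 in the adult and 4194 to 7807 at P6, and 4 of 12 oligodendrocyte lineage genes were called higher and 1 lower, with a sum of 64806 in the adult and 20525 to 26620 at P6. Their part in the astrocyte differences was not tested.

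Primary tumors had less of most markers than P6 cerebellum. Of the 10, 8 fell and 0 rose, against 6.68% of all genes called lower and 4.3% higher, and their median difference was -3.38, against 0.05 over all genes. Aqp4, the water channel of astrocyte endfeet, was 7.83, 7.73 and 6.05 in the tumors and 12.67 and 12.90 at P6. It fell by 5.58 (SE 0.51, adjusted p = 0.000993). Aldh1l1 was 6.10, 5.73 and 5.70 in tumors, low on 2 of the 3 arrays, and fell by 4.83 against P6 (SE 0.14, adjusted p = 5.99e-06). Gjb6 was 5.07, 5.03 and 5.16 in tumors, low on all 3 arrays, and fell against P6 (-3.46, SE 0.09, adjusted p = 2.66e-06). All 10 markers, Gfap and Apoe included, had no overlap between tumor and P6 arrays, a separation seen downward in 23.8% of all genes.

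Gja1, which encodes connexin 43, was 8.20, 7.80 and 8.03 in tumors and 13.23 and 13.25 in P6 cerebellum, a fall of 5.23 (SE 0.48, adjusted p = 0.00095). Fibroblasts also carry connexin 43, and 4 of 5 fibroblast and meningeal markers fell in the same comparison, with sums of 694 to 4525 in tumors and 20988 to 23372 at P6. Their part in the fall of Gja1 was not tested. Slc1a3 was 9.43, 10.13 and 10.27 in tumors and 12.40 and 12.37 at P6, and fell 5.42-fold (-2.44, SE 0.26, adjusted p = 0.00198). Mlc1, a membrane protein of astrocyte junctions whose human gene is mutated in a leukodystrophy with cysts, was low on all 3 tumor arrays, at 5.26, 6.03 and 5.60, against 8.48 and 8.99 at P6. Its fall was 3.10 (SE 0.56, adjusted p = 0.0169). Sparcl1, a secreted matrix protein that promotes synapse formation, fell by 3.37 (SE 0.54, adjusted p = 0.011). Aldoc fell by 3.39 (SE 0.65, adjusted p = 0.021). When the 2 P6 arrays were counted as 1 sample, the calls of Mlc1, Sparcl1 and Aldoc were lost, at adjusted p = 0.122, 0.0957 and 0.145, and those of the other 5 held.

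Aldoc fell beside the Purkinje cell genes of the neuron list, since Pcp2 fell by 5.37 (SE 0.12), Calb1 fell by 6.75 (SE 0.91) and Car8 fell by 7.19 (SE 0.96) in tumors against P6. The summed intensity of the 9 neuron markers was 10146 to 28116 in tumors and 46399 to 47566 at P6. Their part in the difference of Aldoc was not tested. Sparcl1 fell beside endothelial genes, whose 9-gene sum was 792 to 1577 in tumors and 7903 to 8383 at P6, and that part was not tested either.

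Gfap and Apoe were the markers not called lower in tumors than at P6. Gfap, the intermediate filament that rises in reactive astrocytes, was 7.43, 6.87 and 7.52 in tumors and 7.94 and 8.52 at P6, a difference of -0.95 (SE 0.25, adjusted p = 0.0528). The tumor arrays lay below both P6 arrays, and across the 18 cultures Gfap moved only between 6.42 and 7.53. Apoe, the lipid carrier that astrocytes and microglia secrete, was 11.47, 11.71 and 12.01 in tumors and 12.03 and 12.41 at P6, a difference of -0.49 (SE 0.86, adjusted p = 0.747). Of 12 microglial genes, 9 rose and 0 fell in tumors against P6, among them Cd68 by 1.70 (SE 0.18, adjusted p = 0.00169) and the complement gene C1qb by 1.76 (SE 0.24, adjusted p = 0.00557). Their summed intensity was 11895 to 18403 in tumors and 6086 to 7783 at P6, with 0 of 12 low on any of these arrays. The part of microglia in the level of Apoe was not tested.

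Against the adult cerebellum, 9 of 10 markers were lower in tumors, where 15.7% of all genes were. Aldoc fell by 6.10 (SE 0.83, adjusted p = 0.00183) and Gjb6, low on all 3 tumor arrays, fell by 6.04 (SE 0.11, adjusted p = 1.03e-06). Gfap was called here, 2.07-fold lower (-1.05, SE 0.31, adjusted p = 0.0412), a call that held under 20 of 27 alternatives, with adjusted p-values of 0.0192 to 0.0969, and was lost without MB replicate 1 (0.0538) and without SMB55 parental replicate 2 (0.0833), which enters the shared variance. Apoe again was not called (-1.45, SE 1.08, adjusted p = 0.363). This comparison and the P6 one share the tumor arrays, and both SEs of Apoe draw on the shared variance of all 4 groups. The standard deviation of Apoe was 1.71 among parental line means, 0.27 among tumors and 0.27 at P6. Its tumor levels all lay below the adult array, at 13.19.

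Other astrocyte genes were also lower in tumors. Of 29, 11 fell and 1 rose against P6, where 6.68% of all genes fell and 4.3% rose, with a median difference of -1.30. The lipase Pla2g7 fell by 3.57 (SE 0.16, adjusted p = 4.56e-05), the bicarbonate transporter Slc4a4 fell by 2.37 (SE 0.16, adjusted p = 0.000278) and Mfge8, a secreted bridge to dying cells, fell by 2.74 (SE 0.19, adjusted p = 0.000293). Slc1a2 rose by 0.76 (SE 0.14, adjusted p = 0.0185). Of 16 Bergmann and radial glia genes, 5 fell and 0 rose, as Hopx fell by 3.46 (SE 0.12, adjusted p = 1e-05), the matrix protein Tnc fell by 3.83 (SE 0.17, adjusted p = 4.56e-05) and the Notch target Hes5 fell by 3.48 (SE 0.58, adjusted p = 0.0131). Of 23 reactive astrocyte genes, 2 fell and 0 rose. Of 12 oligodendrocyte lineage genes, 4 fell and 0 rose.

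**Figure D2:**
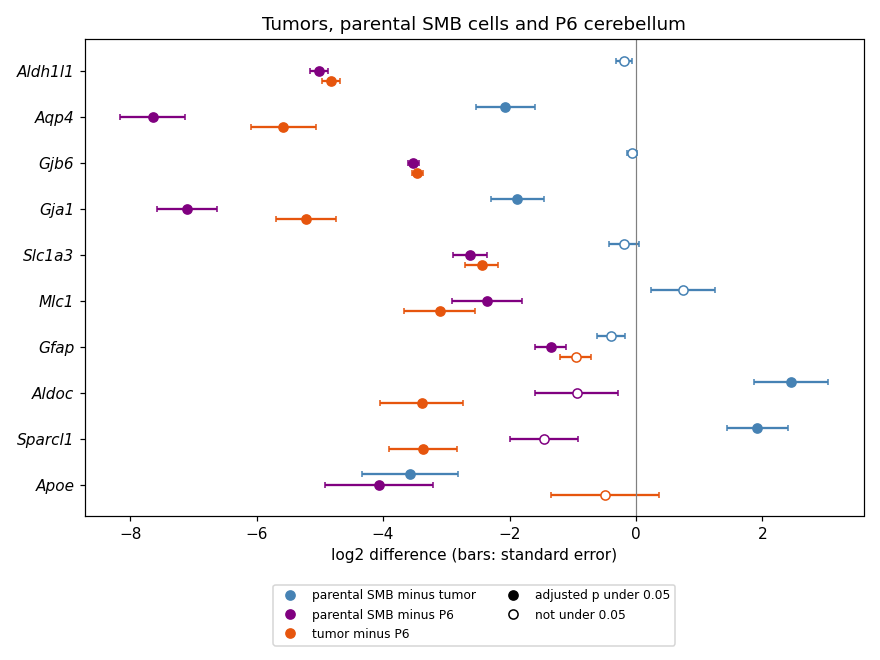
Log2 difference of each marker between parental SMB cells and tumors, parental cells and P6 cerebellum, and tumors and P6 cerebellum, with bars of 1 SE and filled points where the adjusted p was under 0.05. Aldh1l1, Gjb6 and Slc1a3 differ little between parental cells and tumors, whereas Aldoc and Sparcl1 are higher and Apoe is lower in parental cells.

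Against tumors, parental SMB cells had markers called lower, markers called higher and markers not called in either direction. Of the 10, 3 fell and 2 rose against primary MB, where 8.19% of all genes were called lower and 12.4% higher. Each line entered this comparison as 1 mean. These 5 calls were the least stable of the tissue comparisons, and 0 of them held when MB replicate 1 was left out.

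Apoe fell most by the estimate. Parental SMB21 had 9.28, 7.14, 6.65 and 7.00, SMB55 had 9.60 and 10.59, and SMB56 had 6.53 and 7.19, against 11.47 to 12.01 in tumors. The parental arrays all lay below the tumors, as in 9.18% of all genes, and SMB55 lay nearest to them. The fall was 3.57 (SE 0.77, 11.9-fold, adjusted p = 0.0201). The 12 microglial genes all fell in the same comparison, where Ctss fell by 6.89 (SE 0.23) and Tyrobp fell by 4.81 (SE 0.19). Their summed intensity was 453 to 587 in parental cells and 11895 to 18403 in tumors, and 8 or 9 of the 12 were low on each parental array. Of 13 lipid genes listed beside Apoe, 6 fell and 3 rose, and of the cholesterol exporters Abca1 fell by 2.43 (SE 0.09, adjusted p = 3.77e-05) and Abcg1 fell by 2.08 (SE 0.29, adjusted p = 0.00519). The part of microglia in these falls was not tested. Without MB replicate 1 the adjusted p of Apoe was 0.0502, and without replicate 3 it was 0.0637.

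Aqp4 was 4.95 to 5.08 on 7 of the 8 parental arrays, low on all 7, and 6.63 on SMB21 replicate 1. Against tumors it fell by 2.06 (SE 0.46, adjusted p = 0.0226). Gja1 was 7.83, 8.65, 6.21 and 5.93 in SMB21, 5.16 and 5.46 in SMB55, and 6.34 and 5.54 in SMB56, against 7.80 to 8.20 in tumors. One SMB21 array was above all 3 tumors, so the groups overlapped. The difference was -1.87 (SE 0.42, adjusted p = 0.0237). Of the 5 fibroblast and meningeal markers 3 fell here too, with sums of 202 to 336 in parental cells and 694 to 4525 in tumors. Gja1 lost its call when all 6 of its probe sets were averaged (-0.90, adjusted p = 0.0516). Aqp4 lost it with its second probe set (-0.39, adjusted p = 0.0913).

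Aldh1l1 and Gjb6 did not pass the test between parental cells and tumors, with differences of -0.19 (SE 0.13, adjusted p = 0.317) and -0.06 (SE 0.08, adjusted p = 0.627). Both were low on all 18 culture arrays, Aldh1l1 at 5.43 to 5.92 and Gjb6 at 4.88 to 5.27. Tumors were low too, on 2 of 3 arrays for Aldh1l1 and 3 of 3 for Gjb6, so a further fall was hardly measurable. Slc1a3, in contrast, was low on none of the cultures and differed by -0.19 (SE 0.24, adjusted p = 0.608). It was 10.53, 9.27, 9.53 and 9.72 in parental SMB21, 9.73 and 10.29 in SMB55, and 8.59 and 10.42 in SMB56, a range that encloses all 3 tumors. Gfap differed by -0.39 (SE 0.22, adjusted p = 0.247) and Mlc1 by 0.75 (SE 0.50, adjusted p = 0.328). The lines were unlike in Mlc1, since parental SMB21, at 6.95 to 7.90, lay above the 5.26 to 6.03 of tumors. Parental SMB56 was at 5.27 to 5.54.

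Aldoc and Sparcl1 were higher in parental cells than in tumors. Aldoc was 9.95, 10.70, 11.03 and 11.13 in SMB21, 11.45 and 13.47 in SMB55, and 7.47 and 13.94 in SMB56, against 8.33, 9.80 and 8.36 in tumors. The rise was 2.46 (SE 0.58, 5.49-fold, adjusted p = 0.0281), yet SMB56 replicate 1 was below every tumor and replicate 2 was the highest parental array. Without SMB56 replicate 2 the difference was 1.38 (adjusted p = 0.462). Sparcl1 was 12.15, 10.66, 10.91 and 10.57 in SMB21, 11.26 and 12.51 in SMB55, and 12.41 and 12.83 in SMB56, against 9.59, 10.83 and 9.41 in tumors. It rose by 1.92 (SE 0.48, 3.78-fold, adjusted p = 0.0337), and 2 SMB21 arrays lay below the highest tumor. The endothelial sum was 398 to 573 in parental cells and 792 to 1577 in tumors, and the neuron sum was 685 to 2991 in parental cells and 10146 to 28116 in tumors. Both sums were lower in parental cells, and the part of such cells in the differences of Sparcl1 and Aldoc was not tested.

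Set against P6 cerebellum, 8 of 10 markers were lower in parental cells, where 11% of all genes were. Aqp4 fell by 7.64 (SE 0.51, adjusted p = 0.000155) and Gja1 fell by 7.10 (SE 0.48, adjusted p = 0.000154). Aldoc, at -0.94 (SE 0.65, adjusted p = 0.329), and Sparcl1, at -1.45 (SE 0.54, adjusted p = 0.0908), were not called. Against the adult, all 10 were lower, where 16.6% of all genes were, and Gfap fell by 1.44 (SE 0.31, adjusted p = 0.0108) and Aqp4, low on 7 of 8 parental arrays, fell by 7.89 (SE 0.65, adjusted p = 0.000167).

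Among the listed companions, 4 of 29 other astrocyte genes rose and 3 fell in parental cells against tumors. Of all genes 12.4% rose and 8.19% fell, so both counts were near the background. Mfge8 rose by 2.54 (SE 0.17, adjusted p = 0.000405), Bcan, a brain proteoglycan, by 2.57 (SE 0.34, adjusted p = 0.00442) and the growth factor receptor Fgfr3 by 1.06 (SE 0.27, adjusted p = 0.0336). Pla2g7 fell by 2.47 (SE 0.15, adjusted p = 0.000232). Of 16 Bergmann and radial glia genes, 4 rose and 0 fell, and those were Etv5 by 2.23 (SE 0.22, adjusted p = 0.00174), the stem cell factor Sox2 by 2.61 (SE 0.60, adjusted p = 0.0256), the filament Nes by 0.93 (SE 0.20, adjusted p = 0.0218) and Etv4 by 0.61 (SE 0.16, adjusted p = 0.0416). The same shares of all genes, 12.4% up and 8.19% down, stand beside the Bergmann and radial glia counts.

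The 3 parental lines differed in 1 of the 10 markers, against 5.08% of all genes. Mlc1 was 7.90, 6.95, 7.47 and 7.58 in SMB21, 6.82 and 5.69 in SMB55, and 5.54 and 5.27 in SMB56 (adjusted p of the F test = 0.02). The call was lost without SMB21 parental replicate 3 or 4, at adjusted p = 0.0629 and 0.0664. SMB56 minus SMB21 was -2.07 (SE 0.37, adjusted p = 0.0318), with no overlap. SMB55 lay between and differed from SMB21 by -1.22 (SE 0.37, adjusted p = 0.0768). Apoe was highest in SMB55, but the lines did not pass the test (adjusted p = 0.128).

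Promoters are shown for the 3 markers called in GF or RAS cells. RefSeq's GRCm38.p6 table, which holds 250 bases before and 50 after a gene's start, has 8 of the 10 markers. All are written 5′ to 3′ on the gene's strand as that table gives them. Capitals mark AP-1 letters (TGAGTCA) and STAT letters (TTCNNNGAA), searched on both strands. The Mlc1 window lies inside the gene's annotated span, whereas those of Gja1 and Slc1a3 lie at the outer start of the gene. The windows are chr10:56377050-56377349 on the plus strand for Gja1, chr15:8710758-8711057 on the minus strand for Slc1a3 and chr15:88978504-88978803 on the minus strand for Mlc1.
Gja1: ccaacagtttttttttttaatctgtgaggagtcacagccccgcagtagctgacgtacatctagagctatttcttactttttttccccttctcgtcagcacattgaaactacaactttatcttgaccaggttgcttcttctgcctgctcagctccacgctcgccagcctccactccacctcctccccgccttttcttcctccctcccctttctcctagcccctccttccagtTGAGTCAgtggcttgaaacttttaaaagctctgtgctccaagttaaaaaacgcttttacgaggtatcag
Slc1a3: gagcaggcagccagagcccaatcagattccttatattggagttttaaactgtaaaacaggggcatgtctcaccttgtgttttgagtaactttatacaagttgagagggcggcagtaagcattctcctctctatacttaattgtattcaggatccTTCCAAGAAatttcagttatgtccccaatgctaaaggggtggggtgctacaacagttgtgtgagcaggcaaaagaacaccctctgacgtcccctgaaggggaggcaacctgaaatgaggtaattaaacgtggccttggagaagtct
Mlc1: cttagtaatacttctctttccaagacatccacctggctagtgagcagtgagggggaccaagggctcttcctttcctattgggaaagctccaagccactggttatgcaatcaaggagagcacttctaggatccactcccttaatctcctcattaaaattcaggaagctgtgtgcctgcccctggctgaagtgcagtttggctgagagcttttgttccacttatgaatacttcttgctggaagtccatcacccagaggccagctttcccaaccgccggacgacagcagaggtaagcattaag
The Gja1 window holds 1 AP-1 match, starting 19 bases before the gene's start, and 5.19% of 32544 such windows hold one. The Slc1a3 window holds 1 STAT match, starting 96 bases before the start, and 8.33% of windows hold one. Among markers not called in GF or RAS cells, a window of Aldoc holds 2 STAT matches and that of Gfap holds 1. This Mlc1 window holds neither set of letters, and the outer start of Mlc1 was not searched. Another search, for the NFI palindrome, found none in the 11 windows of the markers and a match in 0.0369% of all windows. No 2 of these motifs overlapped in the printed windows, and a match is a description of letters only.

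RAS transformed cells differed from parental cells in Gja1 alone among the 10, where 14.1% of all genes were called higher and 17.9% lower. Gja1 was 11.91, 10.04 and 11.29 in RAS SMB21, 11.49 and 11.79 in RAS SMB55, and 11.22 and 11.07 in RAS SMB56. Parental Gja1 was 7.83, 8.65, 6.21 and 5.93 in SMB21, 5.16 and 5.46 in SMB55, and 6.34 and 5.54 in SMB56. All 7 RAS arrays lay above all 8 parental arrays, as did 3.71% of all genes. The rise was 4.89 (SE 0.52, adjusted p = 1.27e-05), and it was called in each line, at 3.92 (SE 0.63, adjusted p = 0.00142) in SMB21, 6.33 (SE 0.82, adjusted p = 0.000513) in SMB55 and 5.20 (SE 0.82, adjusted p = 0.00376) in SMB56. Within the lines 9.1%, 10.6% and 6.14% of all genes were called higher, in the same order. The lines did not differ in this response by the test (adjusted p = 0.34). RAS cells stayed below the 13.23 and 13.25 of P6 cerebellum.

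Pericytes, like fibroblasts, also carry connexin 43. The 5 fibroblast and meningeal markers summed to 228 to 13809 in RAS cells and 202 to 336 in parental cells, and the 5 pericyte markers to 1322 to 6541 in RAS cells and 246 to 4683 in parental cells. Between 0 and 4 of the fibroblast markers were low on a RAS array. Of the pericyte markers, Rgs5 rose by 2.66 (SE 0.29) and Pdgfrb by 2.66 (SE 0.82, adjusted p = 0.0223). The part of such cells or of these genes' own change in the rise of Gja1 was not tested. Aldh1l1, Aqp4 and Gjb6 were low on all 7 RAS arrays, at levels of 4.92 to 5.74.

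Mlc1 was 5.46, 5.19 and 5.64 in RAS SMB21, 5.06 and 5.15 in RAS SMB55 and 5.96 and 7.15 in RAS SMB56, against 6.95 to 7.90, 5.69 and 6.82, and 5.27 and 5.54 in the parental cells of the same lines. The pooled difference was -0.95 (SE 0.40, adjusted p = 0.0829). It was called without either SMB56 parental array or without SMB56 RAS replicate 2. The response differed by line (adjusted p of the F test = 0.0216), where 3.45% of all genes did. It was -2.05 in SMB21 (SE 0.33, adjusted p = 0.00144), a fall called in 10.3% of all genes there, -1.15 in SMB55 (SE 0.43, adjusted p = 0.0809) and 1.15 in SMB56 (SE 0.43, adjusted p = 0.107). Without SMB56 RAS replicate 2 the adjusted p of the line difference was 0.0819, and without SMB21 parental replicate 3 it was 0.0501. Mlc1 was low on 3 of 8 parental and 5 of 7 RAS arrays, and a fall from a low level is hardly measurable. Parental SMB56, at 5.27 and 5.54, had little room to fall. The test also reuses the parental arrays in which Mlc1 differed between lines.

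The other markers spread widely among RAS arrays. Aldoc was 12.28, 10.03 and 8.51 in RAS SMB21, 14.01 and 12.66 in RAS SMB55, and 14.60 and 14.61 in RAS SMB56, a pooled difference from parental cells of 1.10 (SE 0.91, adjusted p = 0.379). Slc1a3 was 9.92, 10.79 and 8.89 in RAS SMB21, 10.52 and 9.37 in RAS SMB55, and 11.40 and 11.78 in RAS SMB56, and differed by 0.59 (SE 0.40, adjusted p = 0.28). Apoe ranged from 6.28 to 9.69, with a difference of -0.26 (SE 0.64, adjusted p = 0.787), and Sparcl1 from 10.46 to 14.20, with a difference of 0.69 (SE 0.49, adjusted p = 0.301). Gfap, at 6.54 to 6.95, differed by -0.12 (SE 0.14, adjusted p = 0.532).

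**Figure D3:**
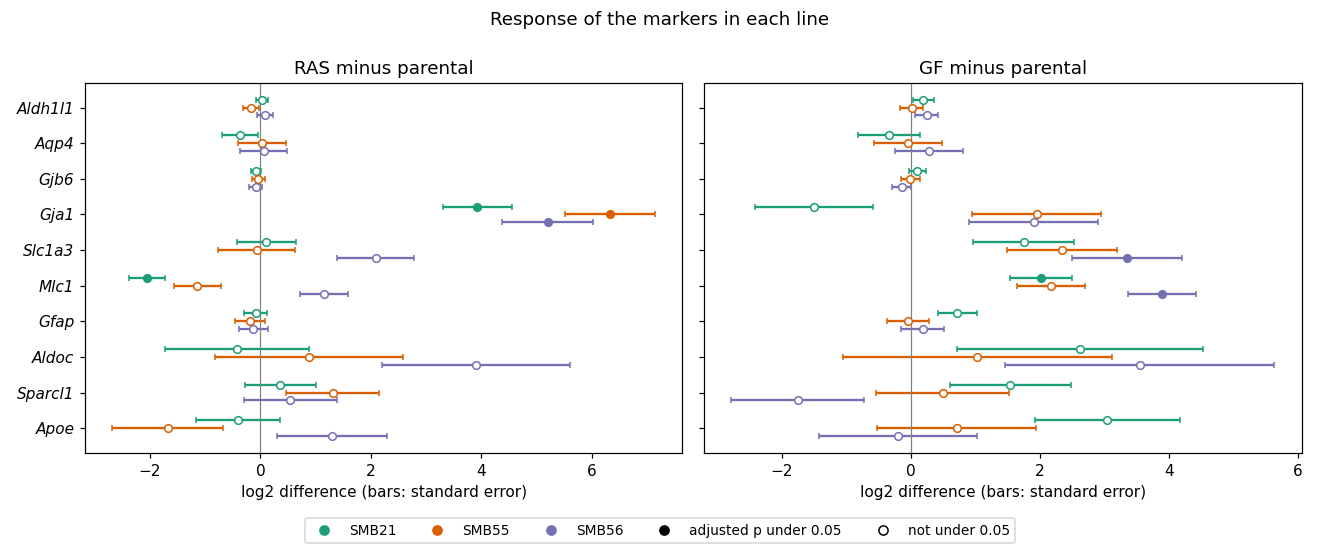
Log2 difference of each marker between RAS and parental cells (left) and between GF and parental cells (right) in each line, with bars of 1 SE and filled points where the adjusted p was under 0.05. Gja1 is higher in RAS cells of all 3 lines. Mlc1 is lower in RAS SMB21 by 2.05 and higher in GF SMB56 by 3.89.

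Outside the 10 markers, genes of the companion lists also differed in RAS cells. These lists were chosen with earlier results of these data known, so their counts are not an independent test. Of 23 reactive astrocyte genes, which astrocytes raise after injury, 15 rose and 0 fell, where 14.1% of all genes rose and 17.9% fell, with a median of 1.73, against -0.05 over all genes. The hyaluronan receptor Cd44 rose by 4.19 (SE 0.35, adjusted p = 2.22e-06), the iron-binding lipocalin Lcn2 by 6.19 (SE 0.67, adjusted p = 1.44e-05), ceruloplasmin, Cp, by 4.46 (SE 0.51, adjusted p = 2.32e-05) and the protease inhibitor Timp1 by 5.47 (SE 0.67, adjusted p = 3.78e-05). Of 29 other astrocyte genes, 8 rose and 0 fell, led by tissue factor, F3, at 3.82 (SE 0.52, adjusted p = 9.21e-05) and the metallothioneins Mt2 at 2.52 (SE 0.46, adjusted p = 0.000841) and Mt1 at 2.28 (SE 0.51, adjusted p = 0.00346). Gfap, the filament of reactive astrocytes, differed by -0.12 in the same comparison.

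Of 16 Bergmann and radial glia genes, 5 rose and 2 fell in RAS cells, the falls at a share below the 17.9% of all genes. Tnc rose by 4.06 (SE 0.34, adjusted p = 1.95e-06) and vimentin, Vim, by 1.90 (SE 0.26, adjusted p = 8.74e-05), whereas Pax6 fell by 1.85 (SE 0.46, adjusted p = 0.00661) and Hes5 fell by 1.36 (SE 0.47, adjusted p = 0.0371). Of 20 regulators of gliogenesis, 6 rose and 4 fell, where 14.1% of all genes rose and 17.9% fell, so the count of falls was near the background. Nfia, Nfib and Nfix, transcription factors that switch on astrocyte genes, differed by -2.02 (SE 0.12, adjusted p = 1.46e-07), -1.60 (SE 0.15, adjusted p = 3.62e-06) and -1.37 (SE 0.16, adjusted p = 3.04e-05). The BMP target Id3 rose by 4.51 (SE 0.49, adjusted p = 1.54e-05) and Stat3 by 1.29 (SE 0.22, adjusted p = 0.000577). Of 13 lipid genes beside Apoe, 5 rose and 0 fell, with Apod up by 4.65 (SE 0.56, adjusted p = 3.26e-05) and Abca1 by 2.20 (SE 0.29, adjusted p = 6.16e-05).

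In GF cells a pair of other markers differed. Mlc1 and Slc1a3 rose in GF cells against parental cells, 2 of 10, and 0 fell, where 3.97% of all genes were called higher and 4.96% lower. Mlc1 was 9.49 in GF SMB21, 8.42 in GF SMB55 and 9.30 in GF SMB56, above all 8 parental arrays, and rose by 2.53 (SE 0.52, adjusted p = 0.00817). GF levels lay around the 8.48 and 8.99 of P6 cerebellum. Slc1a3 was 11.51 in GF SMB21, 12.35 in GF SMB55 and 12.85 in GF SMB56, against a parental maximum of 10.53, and rose by 2.39 (SE 0.52, 5.25-fold, adjusted p = 0.0112). A complete separation upward was seen in 4% of all genes. The parental arrays of SMB21, 6.95 to 7.90, came nearest to the GF level of Mlc1. With the replicate number as a block the differences were 2.52 for Mlc1 (adjusted p = 0.0899) and 2.43 for Slc1a3 (adjusted p = 0.0848), so both calls were lost. Both were also lost without the SMB56 GF array, at adjusted p = 0.0579 and 0.0665.

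By line, Mlc1 was higher in GF cells by 2.01 (SE 0.48, adjusted p = 0.0273) in SMB21, 2.17 (SE 0.52, adjusted p = 0.12) in SMB55 and 3.89 (SE 0.52, adjusted p = 0.00205) in SMB56. Slc1a3 was higher by 1.75 (SE 0.78, adjusted p = 0.215), 2.34 (SE 0.85, adjusted p = 0.375) and 3.35 (SE 0.85, adjusted p = 0.0458) in the same order of lines. Rises were called in 4.03% of all genes in SMB21 and 3.18% in SMB56. The GF response differed between lines in 0 of 10 markers by limma, with 2 of 10 at an unadjusted p under 0.05, where 1.4% of all genes were called. Each line had 1 GF array, so its spread was taken from the other groups.

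Gja1, the marker higher in RAS cells, was 5.66, 7.26 and 7.84 in GF SMB21, SMB55 and SMB56, a difference from parental cells of 0.58 (SE 0.69, adjusted p = 0.697). Aldoc was 13.32, 13.48 and 14.25, at or above most parental arrays, and its difference of 2.22 did not pass the test (SE 1.20, adjusted p = 0.294). Apoe was 10.57 and 10.80 in GF SMB21 and SMB55 but 6.66 in GF SMB56, a difference of 1.24 (SE 0.84, adjusted p = 0.428). Aldh1l1, Aqp4 and Gjb6 were low on all 3 GF arrays. Sparcl1 differed by 0.11 (SE 0.64, adjusted p = 0.957) and Gfap by 0.30 (SE 0.18, adjusted p = 0.347).

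RAS and GF cells were therefore compared directly. Of the 10 markers, Gja1 was higher in RAS cells and Mlc1 and Slc1a3 were lower, where 5.71% of all genes were called higher and 5.45% lower. Gja1 was higher by 4.31 (SE 0.70, adjusted p = 0.00258), with RAS arrays at 10.04 to 11.91 and GF arrays at 5.66 to 7.84. Mlc1 fell by 3.48 (SE 0.53, adjusted p = 0.0022), with RAS arrays at 5.06 to 7.15 and GF arrays at 8.42 to 9.49. Slc1a3 fell by 1.81 (SE 0.53, adjusted p = 0.0409). Its call was lost with the replicate block (-1.81, adjusted p = 0.157) and without any one GF array. This comparison shares its arrays with the 2 before it.

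Companion genes were also higher in GF cells. Of 29 other astrocyte genes, 5 rose and 0 fell in GF cells against parental cells, where 3.97% of all genes rose and 4.96% fell, with Slc4a4 up by 2.24 (SE 0.36, adjusted p = 0.00244), Acsbg1 by 3.33 (SE 0.61, adjusted p = 0.0043) and the lipid receptor S1pr1 by 1.77 (SE 0.33, adjusted p = 0.00461). Of 16 Bergmann and radial glia genes, 4 rose and 0 fell, with A2m at 5.24 (SE 0.41, adjusted p = 6.22e-06) and Tnc at 5.24 (SE 0.44, adjusted p = 1.3e-05). Of 23 reactive astrocyte genes, 6 rose and 0 fell, with Lcn2 up by 5.88 (SE 0.88, adjusted p = 0.00167) and Cd44 by 3.02 (SE 0.46, adjusted p = 0.00185). Set directly against GF cells, A2m fell by 5.10 (SE 0.41, adjusted p = 1.12e-05), S1pr1 fell by 1.72 (SE 0.33, adjusted p = 0.00657) and Slc4a4 fell by 1.45 (SE 0.37, adjusted p = 0.022) in RAS cells, and Timp1 rose by 4.16 (SE 0.89, adjusted p = 0.0105). The lipid genes Lrp1, Scarb1 and Lpl rose in GF cells by 2.39 (SE 0.34, adjusted p = 0.00118), 1.84 (SE 0.28, adjusted p = 0.00189) and 3.52 (SE 0.64, adjusted p = 0.00416).

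**Figure D4:**
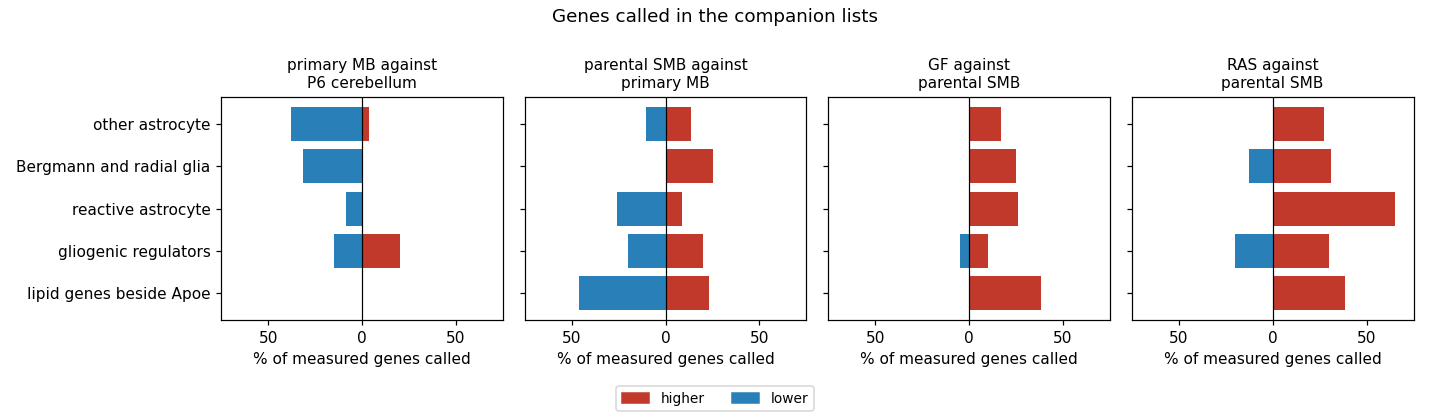
Share of the measured genes of 5 companion lists called higher (right, red) or lower (left, blue) in each of 4 comparisons, in percent. In RAS cells 15 of 23 reactive astrocyte genes rose, and in tumors 11 of 29 other astrocyte genes fell.

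Other genes followed the markers' pattern across the 12 group means, described here by Pearson's r with no test, since cultures share lines and the tissues set much of the range. Over the mean of the 10 markers the closest were Fzd4 (r = 0.956), Scd3 (r = 0.951) and Tdrp (r = 0.948). Slc1a3 was most like Mt3 (r = 0.949), Plce1 (r = 0.917) and Slc4a4 (r = 0.911). Gja1 was most like Ctsk (r = 0.913), Rab27b (r = 0.905) and Lpar1 (r = 0.905). Aldoc was most like Mboat7 (r = 0.962), and Mlc1 most like Ramp1 (r = 0.93).

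The markers differed in how many of the cultures had them low. Aldh1l1, Aqp4 and Gjb6 were low on 18, 17 and 18 of 18 cultures, and Gfap stayed at 6.42 to 7.53. Gja1 was low on 5 of 18 and Mlc1 on 8 of 18. The highest culture array of both was a GF or RAS array, as it was for Slc1a3, Aldoc, Sparcl1, Apoe and Gfap. GF and RAS cells held 3 and 7 of the 18 culture arrays, so such a maximum is likely for any gene. Its share of all genes was not counted. Aldoc, Sparcl1, Apoe and Gfap were not called in GF or RAS cells against parental cells. Slc1a3, Aldoc, Sparcl1 and Apoe were low on 0 of 18.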

How the data were processed

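Per the labels' protocols, total RNA was extracted with Trizol, labelled with biotin and hybridised to Affymetrix mouse arrays. The deposited values are 1 linear intensity per probe set and array. The method by which the authors summarised and normalised these intensities is not stated in the labels used here. An array has no read depth, and its precision is limited by signal over background and by the number of arrays. Probe sets with 1 gene symbol in the platform annotation were used, hybridisation controls were left out, and each gene was represented by its probe set of highest mean on the 24 arrays, giving 12393 genes. Values were taken as log2(intensity + 16), so changes of dim genes are compressed.

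Differences were tested two-sided on these values by limma (version 3.58.1, R 4.3.3) after empirical Bayes shrinkage of variances, p-values were adjusted by Benjamini and Hochberg's method over 12393 genes, and the code was tested on simulated data. Tissues and parental cells shared a fit of 4 groups with 1 mean per line. The 18 cultures shared a fit of treatment and line, and a fit with a mean for each line and treatment tested responses by line. Arrays of 1 line count as replicates there, so p-values hold for these 3 lines. The members and companion lists were chosen with earlier results of these data known. The 10 markers were always named, with the 4 called genes of smallest p per direction, list and comparison, or fewer, the 6 genes most like the markers' mean and the 3 most like each marker. Groups with no overlap have every array of 1 above or below every array of the other.

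GF arrays correlated with same-numbered parental arrays at 0.216, 0.339 and 0.104, as deviations that include the line. MB and P6 pairs correlated at -0.0282 and 0.00498, and RAS and parental pairs at -0.154 to -0.0201. The main fits paired no arrays by number, in GF cells included. Such pairing was run only as the replicate block alternative. Alternatives covered pseudocount, normalisation, dim genes, probe set, model prior, fit design and left-out arrays.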

Additional observations from a re-analysis of the deposited data

Results flagged for a closer look

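SMB21 parental replicate 1 stood apart from the other 3 SMB21 parental arrays in Aqp4, at 6.63, against 5.01 to 5.03. The same array stood apart in Gjb6, at 5.27, against 4.98 to 5.00, which is still a low level. The 10 markers were tested in this way in the 1 group of 4 arrays, and chance flags about 1 in 20. Across all genes SMB21 parental replicate 1 correlated with the other 3 at 0.969 to 0.971, and those with each other at 0.992 to 0.996. Its lower quartile of intensity, 44.2, was the lowest of the 24 arrays and its upper quartile, 1006, the highest. The array thus stood apart as a whole, and not in these markers alone.

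The RAS response of Mlc1 differed between lines, with a range of 3.20 from the lowest line, SMB21, to the highest, SMB56, and an adjusted p of the F test of 0.0216. SMB56 minus SMB21 was 3.20 with an adjusted p of 0.0171. Parental SMB56 was already at 5.27 and 5.54, so a fall was hardly measurable there.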

How the results depend on the processing

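Of 3378 alternative values of the markers, 3247 kept the main result, 109 lost a call, 22 gained one and 0 reversed one. More main results were non-calls than calls, and a non-call that stayed one counts as kept. The least stable calls included Slc1a3 in RAS against GF cells, which held under 17 of 31 alternatives. Aldoc, Gja1 and Sparcl1 in parental cells against MB each held under 17 of 27. Tests of differences between lines have no sign, so a reversal could not be seen there. The rise of Gja1 in RAS cells was called under every alternative run. Gjb6, the marker called in adult against P6 cerebellum, is itself among the dimmest 25% of genes. It was not tested where these were left out, and its call held under all 26 other alternatives. With the dimmest 25% of genes left out, 0 markers were called in adult against P6 cerebellum, with the mean of all probe sets 2, with the second probe set 2 and with only the compared groups 7, against 1. Counting the P6 arrays as 1 sample, chosen after seeing the data, left 5 called in MB against P6, and 2 in parental cells against MB. That last comparison had 3 with the second probe set, 3 with all 8 parental arrays and line as a random block, and 2 with only the compared groups, against 5. GF against parental cells had 0 with 1 mean per line and treatment, and RAS against GF also 0. With the replicate block, GF against parental cells had 0, RAS against GF 2, RAS against parental 1 and MB against P6 7, where Sparcl1 was lost (adjusted p = 0.0545). SMB55 RAS and parental arrays of the same number deviated in opposite directions, and a block with these numbers crossed, added after seeing the data, called 0 in GF and 1 in RAS cells.

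Leaving out arrays or a line in turn gave 1 to 2 markers called in adult against P6, 5 to 8 in MB against P6, 8 to 9 in MB against adult, 0 to 5 in parental cells against MB, 5 to 9 against P6 and 9 to 10 against adult. It gave 0 to 2 in GF against parental, 1 to 2 in RAS against parental, 2 to 3 in RAS against GF, 0 to 2 between parental lines, 0 to 2 for the RAS response by line and 0 to 0 for the GF response by line. Counts over all genes moved over the same left-out arrays, from 341 to 1650 in MB against P6, 1574 to 2643 in parental cells against MB, 401 to 1187 in GF against parental and 3425 to 4124 in RAS against parental. They fell to 19 in GF and 667 in RAS cells with 1 mean per line and treatment, against 1107 and 3974, and reached 6292 in adult against P6 with those groups alone, against 2374. With the replicate block they were 243 in GF against parental and 161 in RAS against GF (158 and 362 for RAS against GF and GF against parental with the crossed numbers), against 1384 in RAS against GF, which had 53 with 1 mean per line and treatment and 898 with those groups alone. MB against P6 had 415 with the block, 329 with P6 as 1 sample and 896 with the random block, against 1361. With P6 as 1 sample, adult against P6 had 1112, parental cells against P6 952, against 3175, and parental cells against MB 1686, against 2552. Parental cells against adult had 3027 with those groups alone, against 4542. Left-out arrays gave 1107 to 2729 in adult against P6, 970 to 3698 in parental cells against P6, 457 to 1660 in RAS against GF, 228 to 1280 between parental lines, 190 to 1230 for the RAS response by line and 24 to 339 for the GF response by line. Without the parental arrays numbered 1, added after seeing the data, GF, RAS and RAS against GF kept counts of 2, 1 and 3 markers, and lines differed in 1382 genes and in their GF response in 674, against 630 and 174.

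Dim probe sets limit Aldh1l1, Gjb6 and Aqp4 in the cultures, where a change below the floor is not measurable. The second probe set of Aldh1l1 was dim even at P6, at 6.32, and that of Aldoc fell by 0.93 in MB against P6 (adjusted p = 0.314).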
